A study of Homo sapiens with 15 samples.

Results

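The NRF2 antioxidant program was followed in A549 cells, an established human lung adenocarcinoma epithelial line, across 5 groups of 3 Affymetrix arrays. The program was taken as 38 listed genes: the transcription factor NFE2L2 (which encodes NRF2), its inhibitor KEAP1, its partner MAFG, and genes of glutathione, thioredoxin, NADPH, detoxification, haem and efflux. For each gene 1 probe set was used, annotated to no other symbol, with probe sets of the _x_at type kept as a last choice and the brightest one on average preferred. This gave 36 of the 38 genes out of 19775 genes named in this way, and all 36 passed the filter on low signals. AKR1B1 and FTH1 have no probe set in the annotation used and were not analysed here.

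The groups were cells left non-treated, cells given dexamethasone for 6 hours, and cells given dexamethasone for 6 hours together with 48 hours of mifepristone, of a match polyamide or of a mismatch polyamide. Dexamethasone is a synthetic glucocorticoid, mifepristone blocks the glucocorticoid receptor, and polyamides are synthetic small molecules that sit in the DNA minor groove, of which the match one is directed to the DNA element that the receptor binds. The medium was F12K in every group, with charcoal-treated serum, which is low in steroids. No group analysed here received a compound without dexamethasone, and the labels give no dose. All groups are of 1 cell line, and the labels do not say whether the 3 arrays of a group came from separate cultures, so p-values reflect the variation among these arrays alone, and that may be technical.

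NRF2 is a transcription factor that KEAP1 holds in the cytoplasm and marks for degradation. Oxidants and electrophiles modify KEAP1, NRF2 then accumulates, pairs with a small MAF protein such as MAFG, and binds antioxidant response elements at genes that make glutathione, reduce thioredoxin, supply NADPH and clear quinones and carbonyls. A549 cells are known for a loss-of-function variant of KEAP1 and for NRF2 that stays active without added stress, and BACH1 competes with NRF2 at some elements, HMOX1 in particular.

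Promoter windows were taken from RefSeq on GRCh38.p14, from 250 bases before to 50 after each annotated start, to show what elements the members carry close to the start. The table held windows for 29 of the 38 genes, 38 windows in all, and none for HMOX1 or SLC7A11. The core of the antioxidant response element, TGACNNNGC, was searched on both strands; the letters TGACTCAGC also hold an AP-1 site. It occurred in 12 of the 38 member windows (31.6%) and in 4687 of 35116 windows of all genes (13.3%), with no adjustment for base composition. The glucocorticoid half-site TGTTCT occurred in 1 of the 38 member windows (2.63%) and in 14.8% of all windows. The windows below are those of 3 members that dexamethasone lowered (GCLM, TXNRD1, KEAP1), and of 2 that the polyamides moved in opposite directions (ME1, CYP4F11). They are written in the direction of the gene with TGACNNNGC or its reverse complement in capitals.
GCLM (chr1:93909381-93909680, minus strand): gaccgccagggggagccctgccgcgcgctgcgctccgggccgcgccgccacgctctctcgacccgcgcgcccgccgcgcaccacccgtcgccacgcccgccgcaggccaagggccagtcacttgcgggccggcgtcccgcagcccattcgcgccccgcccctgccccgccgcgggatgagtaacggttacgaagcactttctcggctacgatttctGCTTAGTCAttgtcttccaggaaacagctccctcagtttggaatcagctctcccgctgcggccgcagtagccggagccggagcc
TXNRD1 (chr12:104215529-104215828, plus strand): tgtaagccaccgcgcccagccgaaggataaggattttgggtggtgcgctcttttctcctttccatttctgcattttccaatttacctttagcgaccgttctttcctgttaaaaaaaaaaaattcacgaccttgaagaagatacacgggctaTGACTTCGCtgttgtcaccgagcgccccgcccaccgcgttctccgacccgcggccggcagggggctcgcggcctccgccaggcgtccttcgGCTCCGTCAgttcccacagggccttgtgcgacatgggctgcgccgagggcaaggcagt
KEAP1 (chr19:10502722-10503021, minus strand): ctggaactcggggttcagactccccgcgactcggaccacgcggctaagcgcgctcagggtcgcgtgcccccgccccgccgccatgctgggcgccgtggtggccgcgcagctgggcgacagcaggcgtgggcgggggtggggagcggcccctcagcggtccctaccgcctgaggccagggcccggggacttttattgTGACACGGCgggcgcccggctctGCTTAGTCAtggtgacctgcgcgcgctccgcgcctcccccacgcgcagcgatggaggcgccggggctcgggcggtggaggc
ME1 (chr6:83431002-83431301, minus strand): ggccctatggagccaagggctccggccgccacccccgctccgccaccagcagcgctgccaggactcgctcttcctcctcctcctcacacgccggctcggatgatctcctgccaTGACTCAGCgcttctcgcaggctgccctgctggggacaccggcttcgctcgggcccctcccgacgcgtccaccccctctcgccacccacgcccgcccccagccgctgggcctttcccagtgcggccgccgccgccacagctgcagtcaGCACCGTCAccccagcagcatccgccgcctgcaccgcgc
CYP4F11 (chr19:15934818-15935117, minus strand): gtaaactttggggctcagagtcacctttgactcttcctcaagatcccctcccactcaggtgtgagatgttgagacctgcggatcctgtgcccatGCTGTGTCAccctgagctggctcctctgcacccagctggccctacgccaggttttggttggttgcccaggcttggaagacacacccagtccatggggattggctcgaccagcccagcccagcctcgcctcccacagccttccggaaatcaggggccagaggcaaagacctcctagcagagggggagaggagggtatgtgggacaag

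Counted from the start as +1, the first base of the match lay at -34 in GCLM, at -99 and -8 in TXNRD1, at -54 and -31 in KEAP1, at -137 and +12 in ME1, and at -156 in CYP4F11. The windows of KEAP1, TXNRD1 and CYP4F11 are each 1 of 2 listed for the gene. The other window held no match for KEAP1 and CYP4F11, and 1 match for TXNRD1. A match is a run of letters and not a measured site. Of the 12 members that fell with dexamethasone 9 had a window, and only the 3 shown above held the core. Among the members not called that had a window, 8 of 19 held it.

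Signals are MAS5 values on a linear scale, quantile normalized here, and differences are on the log2(signal + 16) scale, which understates the change of low signals. The deposited arrays were not scaled alike: their 2% trimmed means ran from 87.2 to 108 in non-treated, dexamethasone and match arrays, from 119 to 147 in mifepristone arrays and from 91.8 to 137 in mismatch arrays. The threshold for calling a change was an adjusted p below 0.05 (limma, Benjamini-Hochberg over all 39744 probe sets tested). Of 8 epithelial markers KRT8, KRT18, KRT19, KRT7, EPCAM, CDH1 and ELF3 lay between percentiles 86.7 and 99.9 of the array and CLDN4 at percentile 44.1. The summed epithelial signal was 24029 to 24698 with dexamethasone, 21496 to 22415 in non-treated cells, 20444 to 21396 with mifepristone, 18314 to 21003 with match and 22688 to 23252 with mismatch. KRT8, KRT18 and KRT7 carry most of that sum, and the means of single markers were not all on one side: with match against dexamethasone the mean of EPCAM was 606 against 167, of ELF3 957 against 451, of CDH1 124 against 382 and of KRT7 3935 against 6197. The 4 leukocyte markers with a probe set (PTPRC, CD3D, CD14, LYZ) summed to 19.8 to 52.3 over all arrays, and PECAM1, VWF, CDH5 and TEK to 39.0 to 78.1. The fibroblast list (COL1A1, COL3A1, DCN, LUM, PDGFRB) summed to 119 to 233 in the other groups and to 272 to 306 with match, most of it COL1A1, and the part of these shifts in the results was not tested. FKBP5, a co-chaperone of the receptor and a standard target of the hormone, gave mean signals of 231 in non-treated cells and 2733 with dexamethasone. It gave 584 with mifepristone added, 554 with match and 1519 with mismatch. TSC22D3, the other gene checked for the hormone response, gave 123, 1101, 189, 670 and 835 in the same order. For TSC22D3 match thus stayed well above mifepristone.

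**Figure D1:**
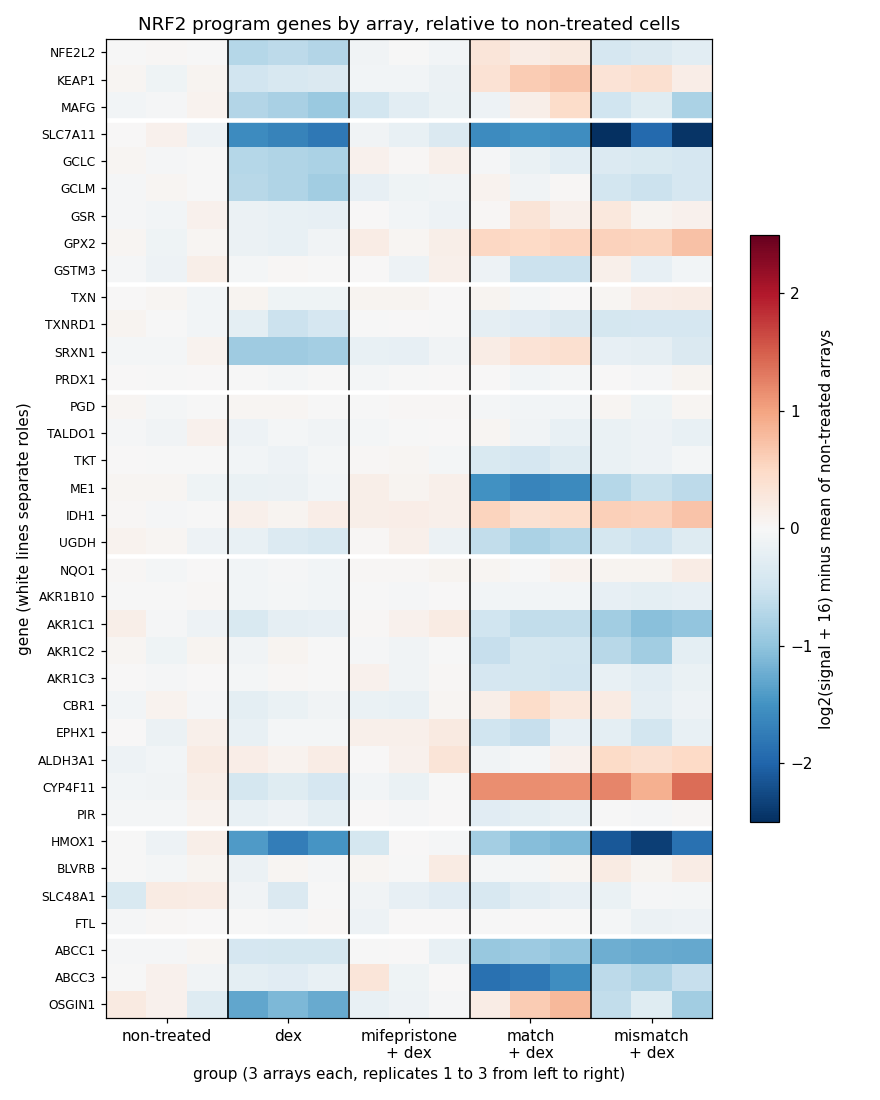
Heat map of the 36 genes (rows, grouped by role with white lines between roles) on the 15 arrays (columns, 3 per group); colour is log2(signal + 16) minus the mean of the 3 non-treated arrays. SLC7A11, HMOX1 and OSGIN1 are blue on the 3 dexamethasone arrays and near white on the mifepristone arrays, while CYP4F11 is red and ME1 and ABCC3 are blue on the polyamide arrays.

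Dexamethasone was compared with no treatment to ask what the hormone does to the program within 6 hours. Part of the program was lower: 12 of 36 members fell, 0 rose and 24 were not called. Over all probe sets 2.29% were called lower, 2.56% higher and 4.85% were called in either direction, and over 1 probe set per gene 3.61% were called lower. The members were chosen with earlier results of these data known. They are also bright, at a median percentile of 97.5 by mean signal (lowest 67.8). Shares among equally bright probe sets were not computed, here or in the comparisons below. The median of the members was -0.16 on the log2 scale, beside -0.01 over all probe sets, and 33 of 36 estimates were below 0. All 3 regulators fell, 3 of 6 genes of cystine uptake and glutathione and 2 of 4 of the thioredoxin group, while none of the 10 quinone, carbonyl and xenobiotic enzymes was called. In bulk RNA, fewer cells that express a gene and less RNA per cell cannot be told apart.

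Among the regulators, NFE2L2 (probe set 201146_at) read 1965, 2023 and 1981 on the non-treated arrays and 1213, 1259 and 1199 with dexamethasone. These do not overlap, and the difference was -0.69 (SE 0.05; limma adjusted p = 1.33e-08). KEAP1 (202417_at), the adaptor that hands NRF2 to the ubiquitin machinery, read 426, 385 and 432 and then 292, 310.4 and 318, a fall of 0.41 (SE 0.09; limma adjusted p = 0.00595). MAFG (204970_s_at) went from 217, 221 and 244 to 131, 122 and 111, a fall of 0.82 (SE 0.14; limma adjusted p = 6.28e-04). Arrays of the 2 groups were fully apart for all 3 genes. The second tested probe set of MAFG gave -1.57 and that of NFE2L2 gave -0.20, the latter not called (adjusted p = 0.796). KEAP1 lost its call when the deposited signals were used unscaled (adjusted p = 0.382) and with spike-in scaling (adjusted p = 0.131).

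**Figure D2:**
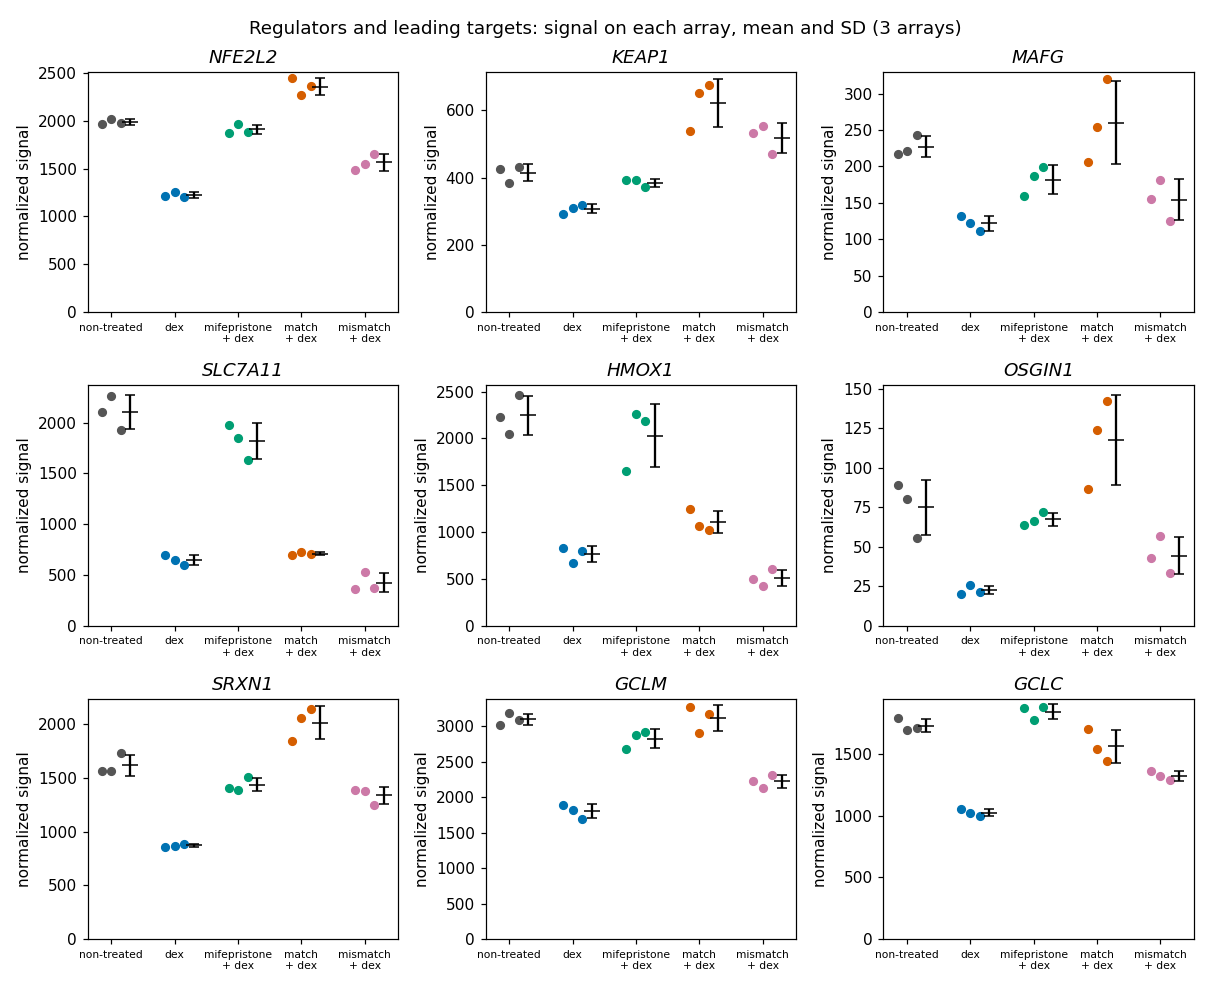
Normalized signal (linear axis from 0) of the 3 regulators and of 6 targets on each array by group; points are arrays, and the black mark and bar are the mean and SD of 3 arrays. For all 9 genes the 3 dexamethasone arrays lie below the 3 non-treated arrays, with SLC7A11 at 599 to 692 against 1930 to 2265.

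Among the targets the largest fall was in SLC7A11 (209921_at), the cystine transporter that feeds glutathione synthesis. Its non-treated arrays read 2108, 2265 and 1930.2, and its dexamethasone arrays read 692, 648 and 599. The groups are wide apart, with a difference of -1.68 (SE 0.11; limma adjusted p = 1.40e-09), and a further probe set, 217678_at, gave -1.61 while 207528_s_at gave -0.37 and was not called. GCLM (203925_at), the modifier subunit of the enzyme that makes the first bond of glutathione, went from 3014, 3179 and 3087 to 1895, 1820.1 and 1693 (-0.77, SE 0.06; limma adjusted p = 8.52e-09). GCLC, the catalytic subunit, fell by 0.75 (SE 0.06), so the subunits were 1.71-fold (GCLM) and 1.68-fold (GCLC) lower. SRXN1 (225252_at), sulfiredoxin, which repairs oxidised peroxiredoxins, went from 1559, 1560.5 and 1726 to 860.2, 869.9 and 885 (-0.88, SE 0.07; limma adjusted p = 1.16e-08). No array of these genes crossed into the other group.

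HMOX1 (203665_at), haem oxygenase, fell by 1.54 (SE 0.12), from 2245 ± 211 (SD, n = 3) to 764 ± 86.5 (SD, n = 3). OSGIN1, a growth inhibitor induced by oxidative stress, fell by 1.23 (SE 0.18), from 74.9 ± 17.3 (SD, n = 3) to 22.4 ± 2.72 (SD, n = 3), a low signal. Smaller falls were called in TXNRD1, thioredoxin reductase (-0.40, SE 0.06), in the efflux pump ABCC1 (-0.43, SE 0.06) and in UGDH, which makes UDP-glucuronic acid (-0.31, SE 0.08). The calls of TXNRD1, ABCC1 and UGDH were lost on the signals as deposited (adjusted p = 0.106, 0.288 and 0.603). ABCC1 was also lost with spike-in scaling (0.0748) and on its other probe set (-0.24, adjusted p = 0.349), and UGDH with spike-in scaling (0.287), with no variance trend in the model (0.161), and without non-treated replicate 1 (0.104) or 2 (0.0784) or dexamethasone replicate 2 (0.0764) or 3 (0.0899).

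The 24 members that were not called ranged from -0.39 for CYP4F11, an omega-hydroxylase of fatty acids (adjusted p = 0.0806), to 0.15 for ALDH3A1, an aldehyde dehydrogenase. NQO1, the quinone reductase that is a standard readout of NRF2, stood at -0.05 (95% interval -0.14 to 0.03), and AKR1B10, an aldo-keto reductase, at -0.06 (-0.12 to 0.01). Another probe set of NQO1 (201468_s_at) was called lower at -0.24. TXN, PRDX1, PGD, TALDO1, TKT, FTL and AKR1C3 lay between -0.09 and 0.02. Probe sets of 13 members had mean signals above the 99th percentile of the array (3129, with the highest signal at 11302), among them NQO1, AKR1B10, TXN, PRDX1, FTL and AKR1C3, and whether the top of the scale limits their differences was not tested. Of 55 other genes of the pathway listed, 48 had a probe set and all were tested. Of these 5 fell, 2 rose and 41 were not called. Each was read on 1 probe set, and other scalings and probe sets were not tried for these genes. TRIM16 (-0.58, SE 0.05), the conjugate pump ABCC2 (-0.53, SE 0.07) and the autophagy adaptor SQSTM1 (-0.61, SE 0.08), which binds KEAP1, fell. NFE2L1, a relative of NFE2L2, rose (0.72, SE 0.11), and BACH1 was at -0.11 (adjusted p = 0.76).

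**Figure D3:**
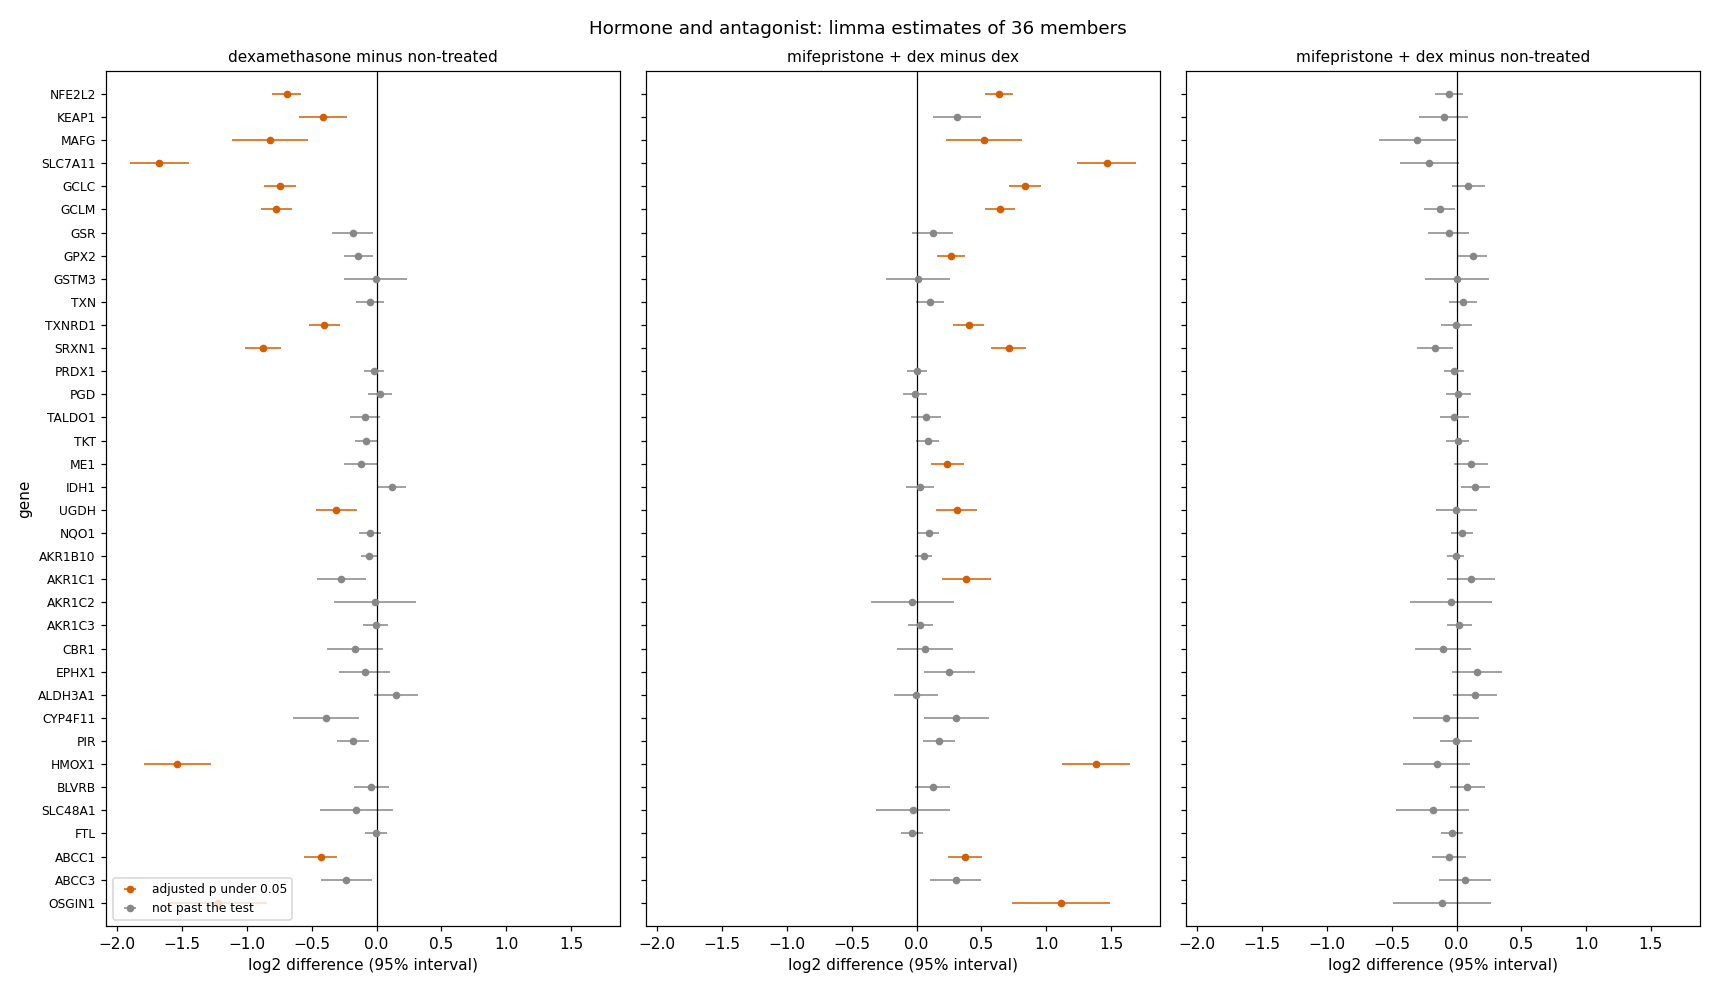
Log2 difference with its 95% interval from limma for the 36 members in 3 comparisons: dexamethasone minus non-treated (left), mifepristone with dexamethasone minus dexamethasone (middle) and mifepristone with dexamethasone minus non-treated (right); orange marks an adjusted p under 0.05. The left panel has 12 orange points, all below 0, the middle has 14, all above 0, and the right has 0.

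What a receptor antagonist does to these levels was read from the mifepristone arrays set against dexamethasone alone. Part of the program was higher: 14 of 36 members rose, 0 fell and 22 were not called. Over all probe sets 1.61% were called higher, 1.94% lower and 3.55% in either direction. The members' median was 0.21, beside 0.01 over all probe sets. This comparison shares the dexamethasone arrays with the one before, so opposite signs in the 2 are not independent of each other.

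GCLC (202923_s_at) read 1054, 1024 and 999 with dexamethasone alone and 1871, 1777 and 1884 with mifepristone added. The rise was 0.84 (SE 0.06; limma adjusted p = 1.13e-08), with the groups apart. SLC7A11 read 1976, 1846 and 1627 with mifepristone, a rise of 1.47 (SE 0.11), and NFE2L2 read 1876, 1965 and 1887, a rise of 0.64 (SE 0.05). Both stood clear of every dexamethasone array. The other probe set of NFE2L2 gave 0.19 and was not called (adjusted p = 0.846). HMOX1 rose by 1.38 (SE 0.12), OSGIN1 by 1.12 (SE 0.18), SRXN1 by 0.71 (SE 0.07) and GCLM by 0.64 (SE 0.06). These 7 genes were the ones called at 1.5-fold or more. KEAP1 read 393, 391 and 371 and was not called (0.31, adjusted p = 0.0586), although no array overlapped those of dexamethasone alone. KEAP1 was called under each of the 4 other scalings, at 0.32 to 0.86 (adjusted p from 5.94e-04 to 0.0497), and without match replicate 1 (0.0256) or 3 (0.0495). MAFG read 159.8, 187 and 199 and was called at 0.52 (adjusted p = 0.0428), a call that was lost in 13 of the 27 alternatives, 10 of them with 1 array left out: any of the non-treated or dexamethasone arrays, mifepristone replicate 2 or 3, match replicate 2 or mismatch replicate 1 (adjusted p from 0.0533 to 0.175, highest without dexamethasone replicate 3). TXNRD1, ABCC1, GPX2, AKR1C1, UGDH and ME1 were called between 0.24 and 0.40.

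Of those 6, AKR1C1 lost its call without mifepristone replicate 2 (adjusted p = 0.0562) or 3 (0.0809) or dexamethasone replicate 1 (0.0986). UGDH was lost without dexamethasone replicate 2 (0.0970) or 3 (0.123) or mifepristone replicate 1 (0.0963) or 2 (0.145), and ME1 without dexamethasone replicate 1 (0.132) or 2 (0.120) or any mifepristone array (0.0660 to 0.143). On other probe sets AKR1C1 gave 0.52 (adjusted p = 0.440), GPX2 0.44 (0.107) and ABCC1 0.41 (0.0688), none of them called, while NQO1 on 201468_s_at was called higher at 0.30. GPX2, TXNRD1, ME1 and UGDH were lost with trimmed-mean scaling (0.756, 0.194, 0.168 and 0.343). The scaling of the arrays bears on this count: as deposited the median of all probe sets moved by 0.35 and 24 members were called higher, and with spike-in scaling it moved by 0.42 and 31 members were called higher, with 0 lower in both. HMOX1, SLC7A11, OSGIN1, SRXN1, GCLM and GCLC rose under every scaling tried. Among the other pathway genes 5 of 48 rose and 1 fell, with TRIM16 at 0.44, ABCC2 at 0.50 and SQSTM1 at 0.55 on one side and NFE2L1 at -0.61 on the other.

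Compared directly with non-treated cells, cells given mifepristone and dexamethasone showed no called member (0 of 36 with limma, 5 of 36 at an unadjusted p under 0.05; 0.166% of all probe sets were called, 0.121% higher and 0.0453% lower). The smallest adjusted p, 0.581, belonged to IDH1, an NADPH-producing dehydrogenase (0.15, 95% interval 0.04 to 0.25; arrays 2907, 2765 and 2831 and 3140.2, 3191 and 3080.5). SRXN1 was at -0.17 (-0.30 to -0.03) and GPX2, a glutathione peroxidase, at 0.12 (0.01 to 0.24). HMOX1 was at -0.15 (-0.41 to 0.11), SLC7A11 at -0.21 (-0.44 to 0.02) and MAFG at -0.30 (-0.59 to -0.01). Over the 36 members the intervals ran from -0.59 to 0.35, so differences within that range are not shown to be absent. As deposited 9 members, and with spike-in scaling 7, were called higher than in non-treated cells. The median of all probe sets stood at 0.36 in both, and 5780 and 3927 of all probe sets were called higher.

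The match arrays were next set against dexamethasone alone. All 3 regulators rose, and SRXN1, OSGIN1 and CYP4F11 rose with them, while ME1 and ABCC3 fell. In all 13 of 36 members rose, 10 fell and 13 were not called. Over all probe sets 15.9% were called higher, 14.9% lower and 30.8% in either direction, and over 1 probe set per gene 39.1% were called. The members' median was 0.02, beside 0.03 over all probe sets. As deposited the split was 12 higher and 5 lower, beside 4271 higher of 7978 called over all probe sets. With spike-in scaling it was 13 and 2, beside 8315 higher of 11014 called.

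ME1 (204059_s_at), malic enzyme, a source of NADPH, read 1506, 1526 and 1608 with dexamethasone and 583, 529.7 and 549.7 with match added. The fall was 1.46 (SE 0.06; limma adjusted p = 4.26e-13), with wide separation. ABCC3, a pump for glucuronide conjugates, was 2.83-fold lower (SE 0.09 on the log2 scale). ABCC1 fell by 0.52, AKR1C3 by 0.43, UGDH by 0.39 and TKT, transketolase, by 0.30; the calls of these 4 were lost with spike-in scaling (adjusted p = 0.232, 0.195, 0.507 and 0.609), which moves the median of all probe sets by 0.23. UGDH was also lost on the signals as deposited (0.0693). A further probe set of TKT (228205_at) stood at 0.23 and was not called, while 208699_x_at fell.

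SRXN1 read 1840.0, 2057 and 2142 with match, above every dexamethasone array, a rise of 1.19 (SE 0.07; limma adjusted p = 2.11e-11). NFE2L2 read 2448, 2265 and 2359, a rise of 0.94 (SE 0.05), KEAP1 read 539, 649.8 and 676, a rise of 0.98 (SE 0.09), and MAFG read 206, 254 and 319, a rise of 0.98 (SE 0.14). All 3 regulators were apart from dexamethasone alone. OSGIN1 (1.78, SE 0.18), CYP4F11 (1.54, SE 0.12), GCLM (0.78, SE 0.06), GPX2 (0.66, SE 0.05) and GCLC (0.60, SE 0.06) were the others raised at 1.5-fold or more. HMOX1 rose by 0.53 (SE 0.12; limma adjusted p = 0.00235), CBR1, a carbonyl reductase, by 0.46, and IDH1 and glutathione reductase GSR by 0.34 each, GSR losing its call on the signals as deposited (adjusted p = 0.0772) and on its other probe set (0.04, adjusted p = 0.859). The SLC7A11 estimate was 0.13 (95% interval -0.09 to 0.36) and was not called, although another of its probe sets, 217678_at, rose by 0.31 and 207528_s_at fell by 0.58. NQO1 was not called on its chosen probe set, but its next probe set was called higher at 0.33 (limma adjusted p = 5.57e-06). With the filter at percentile 60 the chosen probe set of NQO1 was called higher too, at 0.10 (limma adjusted p = 0.0415).

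The remaining falls were under 1.5-fold. The AKR1C1 call did not hold without dexamethasone replicate 2 (adjusted p = 0.0515) or 3 (0.0605), AKR1C2 without dexamethasone replicate 2 (0.0634) or match replicate 1 (0.0551), EPHX1, microsomal epoxide hydrolase, without match replicate 2 (0.0611), and GSTM3 without match replicate 2 (0.0719) or 3 (0.0679). These 4 were also lost on the signals as deposited and with spike-in scaling. For AKR1C1 and AKR1C2, near-identical enzymes of steroid and carbonyl reduction, the probe sets chosen (217626_at and 244266_at) disagreed with those ending in _x_at, which lay between -0.13 and 0.01 and were not called, so these 2 genes are uncertain.

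**Figure D4:**
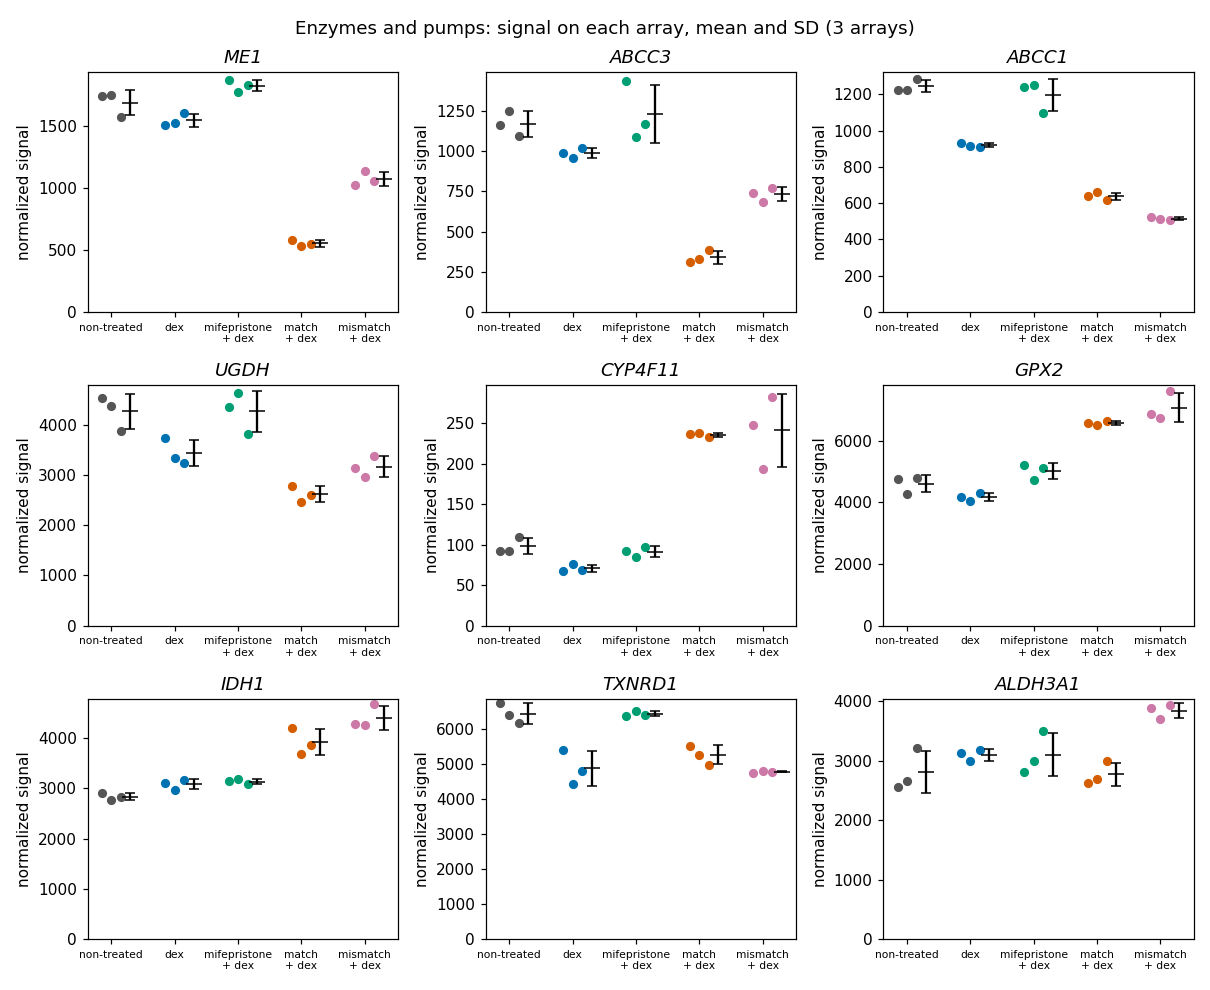
Normalized signal (linear axis from 0) of 9 enzymes and pumps on each array by group; points are arrays, and the black mark and bar are the mean and SD of 3 arrays. ME1 and ABCC3 are lowest on the match arrays (529.7 to 583 and 309 to 387), while CYP4F11 is high on all 6 polyamide arrays (193 to 282).

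Among the other pathway genes 23 of 48 rose with match, 12 fell and 13 were not called. GSK3B, a kinase that feeds NRF2 to a KEAP1-independent route of degradation, fell by 1.88 (SE 0.09), and the multidrug pump ABCC4 fell by 2.24 (SE 0.11). MAFF, a small MAF protein, rose by 1.95 (SE 0.09) and the carboxylesterase CES1 by 1.10 (SE 0.06). CUL3, the ubiquitin ligase scaffold that works with KEAP1, was lower by 0.72 and BACH1 higher by 0.52, 2 genes picked after their values were seen.

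The mismatch polyamide with dexamethasone, compared with dexamethasone alone, raised 15 of 36 members and lowered 9, with 12 not called. Over all probe sets 12.0% were called higher, 10.9% lower and 22.9% in either direction. The members' median was 0.06, beside 0.02 over all probe sets. As deposited the split was 14 higher and 2 lower, beside 4474 higher of 6237 called over all probe sets. With spike-in scaling it was 11 and 3, beside 3001 higher of 4971 called.

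GPX2 (202831_at) read 4175, 4046 and 4302 with dexamethasone and 6881, 6752 and 7628 with mismatch added. The rise was 0.76 (SE 0.05; limma adjusted p = 2.19e-09), and a second probe set of GPX2 rose by 1.60. ABCC1 (202804_at) read 932, 913 and 911 and then 522, 511 and 507, a fall of 0.82 (SE 0.06). CYP4F11 (206153_at) read 67.8, 75.9 and 68.7 and then 247, 193 and 282, a rise of 1.55 (SE 0.12). Arrays of both groups stayed apart for all 3. KEAP1 read 532, 552 and 468, a rise of 0.72 (SE 0.09), and NFE2L2 read 1484, 1553 and 1655, a rise of 0.35 (SE 0.05). MAFG read 155, 182 and 125, which overlapped dexamethasone alone, and was not called (0.29, adjusted p = 0.153). The other MAFG probe set was called higher at 1.17 (limma adjusted p = 0.00231), and without mismatch replicate 3 the chosen one was called at 0.42 (limma adjusted p = 0.0488). The other NFE2L2 probe set gave -0.08 and was not called (adjusted p = 0.873).

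SRXN1 rose by 0.61 (SE 0.07), IDH1 by 0.51 (SE 0.05), GCLC by 0.36, GCLM by 0.30 and ALDH3A1 by 0.31. OSGIN1 rose by 0.63 (SE 0.18), a call that did not hold without dexamethasone replicate 1 (adjusted p = 0.0517) or mismatch replicate 2 (0.0908). SLC7A11 fell by 0.62 (SE 0.11; limma adjusted p = 2.55e-04), to 359.6, 531 and 373. HMOX1 fell by 0.58 (SE 0.12) and ME1 by 0.52 (SE 0.06). On the signals as deposited the calls of SLC7A11 (adjusted p = 0.0842), HMOX1 (0.162) and ME1 (0.175) were lost, and with spike-in scaling those of HMOX1 (0.108) and ME1 (0.118). AKR1C1 fell by 0.70 and AKR1C2 by 0.59 on the probe sets named above, beside -0.16 to -0.07 on those ending in _x_at. AKR1C2 was lost on the signals as deposited (adjusted p = 0.140) and with spike-in scaling (0.107).

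ABCC3, AKR1C3 and AKR1B10 fell by less than 1.5-fold. ABCC3 was lost on the signals as deposited (adjusted p = 0.399) and with spike-in scaling (0.285). AKR1C3 and AKR1B10 were each lost in 5 alternatives: signals as deposited, median centring, trimmed-mean scaling, spike-in scaling and no variance trend. Adjusted p there ran from 0.0868 to 0.904 for AKR1C3 and from 0.133 to 0.973 for AKR1B10. Neither of these 2 calls held under any other scaling tried. GSR, TXN, NQO1, PIR and BLVRB were called higher, at 0.16 to 0.33. NQO1 lost its call in 3 alternatives, and GSR in 1, where its other probe set had the opposite sign. PIR, an iron-binding nuclear protein, was lost without any 1 of the 3 mismatch arrays or without dexamethasone replicate 1 or 3 (adjusted p = 0.0541 to 0.118). BLVRB, biliverdin reductase, was lost without dexamethasone replicate 1 or 3 or mismatch replicate 1 or 3 (0.0588 to 0.168), and TXN without dexamethasone replicate 2 or 3 or mismatch replicate 3 (0.0569 to 0.0607). Of the other pathway genes 20 of 48 rose with mismatch and 9 fell. MAFF rose by 1.52 (SE 0.09), and ABCC4 (-1.58, SE 0.11), GSK3B (-1.16, SE 0.09) and the taurine transporter SLC6A6 (-0.67, SE 0.06) fell.

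**Figure D5:**
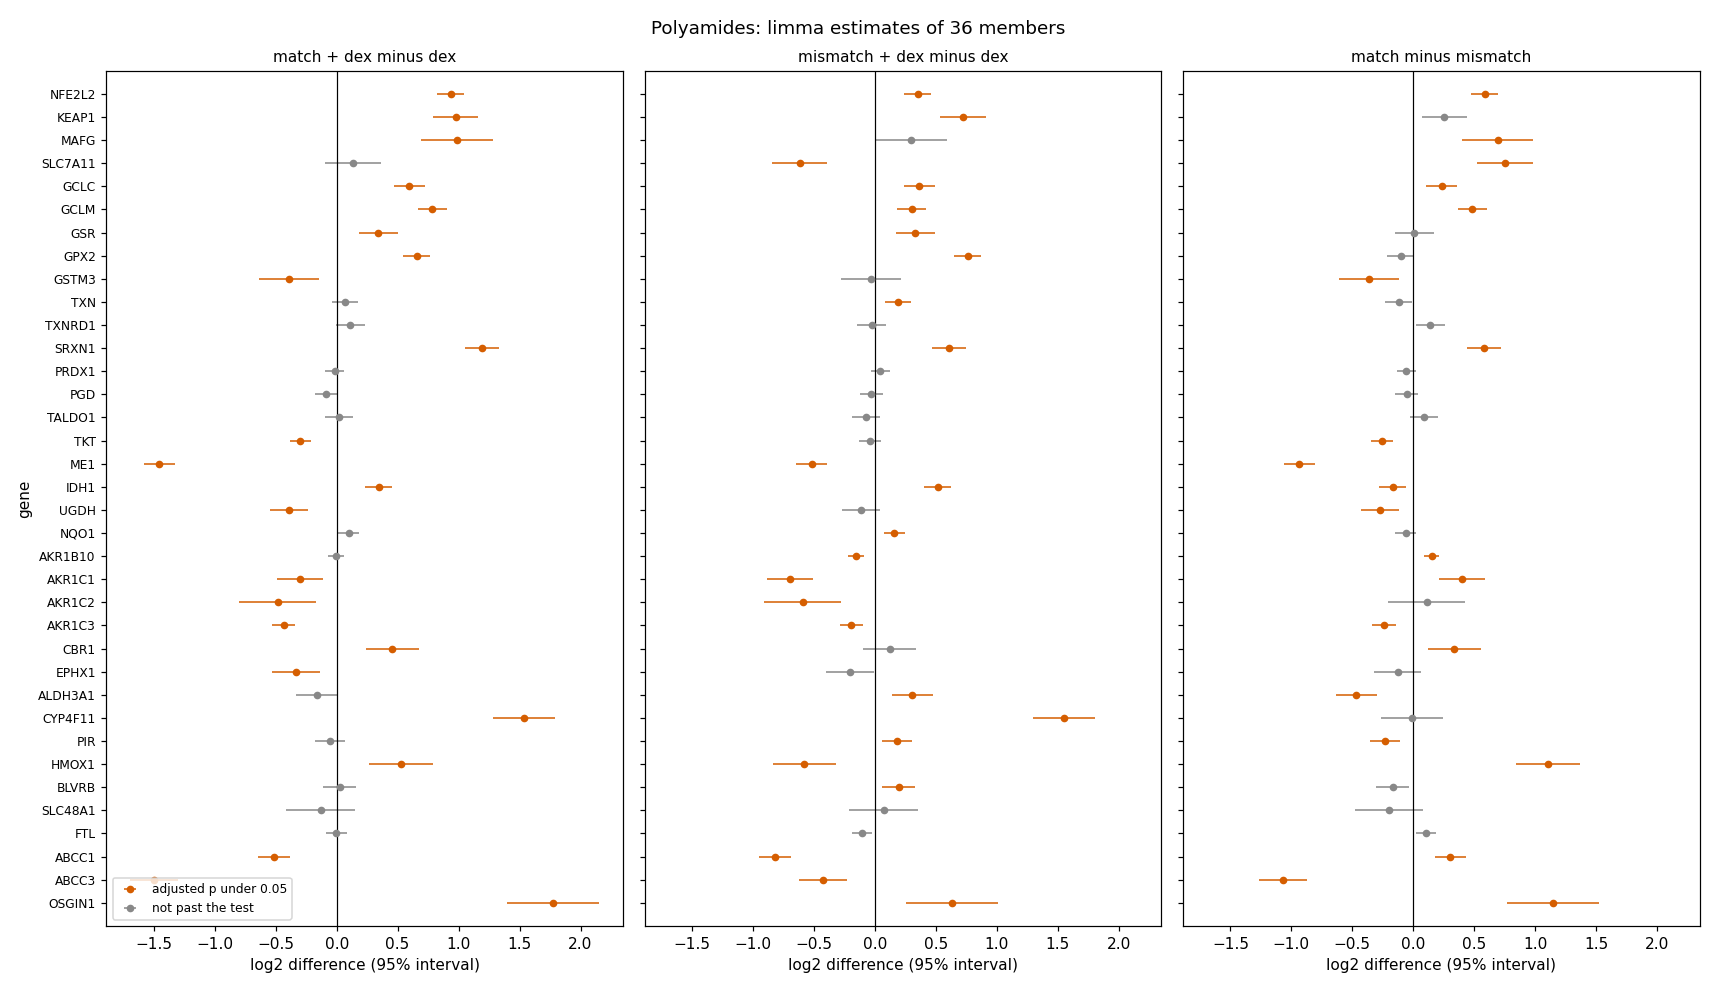
Log2 difference with its 95% interval from limma for the 36 members: match with dexamethasone minus dexamethasone (left), mismatch with dexamethasone minus dexamethasone (middle) and match minus mismatch (right), on 1 common axis; orange marks an adjusted p under 0.05. The right panel has 12 orange points above 0, with OSGIN1 and HMOX1 farthest, and 9 below 0, with ABCC3 and ME1 farthest.

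The 2 polyamides, given for the same 48 hours at doses the labels leave out, were then compared with each other. With match, 12 of 36 members were higher than with mismatch, 9 were lower and 15 were not called. Over all probe sets 7.47% were called higher, 9.38% lower and 16.9% in either direction. The members' median was -0.00, beside 0.01 over all probe sets. The split moved with scaling, to 8 higher and 12 lower with median centring, 3 and 6 as deposited, and 8 and 2 with spike-in scaling. Over all probe sets 1876 of 6116 called were higher with median centring, 556 of 3094 as deposited and 2009 of 2808 with spike-in scaling. The labels name the polyamides only as match and mismatch, and the chemical change between them is not described here.

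ME1 was lower with match, at 554 ± 27 (SD, n = 3) against 1025, 1139 and 1059.5 on the mismatch arrays (-0.94, SE 0.06; limma adjusted p = 3.25e-09). ABCC3 (208161_s_at) read 309, 327 and 387 with match and 738, 683 and 772 with mismatch (-1.07, SE 0.09; limma adjusted p = 1.43e-07). Both genes kept this direction and their call under each alternative. NFE2L2 was higher with match, at 2357 ± 91.4 (SD, n = 3) against 1564 ± 86.1 (SD, n = 3) (0.59, SE 0.05), with no overlap. HMOX1 was higher by 1.11 (SE 0.12), OSGIN1 by 1.15 (SE 0.18), SLC7A11 by 0.75 (SE 0.11), MAFG by 0.69 (SE 0.14), SRXN1 by 0.58 and GCLM by 0.48. As deposited the calls of NFE2L2 (adjusted p = 0.102), MAFG (0.0643), SRXN1 (0.0733) and GCLM (0.230) were lost. The other MAFG probe set gave 0.48 and was not called (adjusted p = 0.256).

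ALDH3A1 was lower with match by 0.47, TKT by 0.26, AKR1C3 by 0.24 and PIR by 0.24, and all 4 calls were lost with spike-in scaling. For TKT the probe sets disagree: 228205_at was called in the opposite direction, higher with match by 0.76 (limma adjusted p = 2.03e-05). ABCC1 and AKR1C1 were called higher at 0.31 and 0.40 and were lost on the deposited signals (adjusted p = 0.674 and 0.403), where AKR1B10, called at 0.15, turned to -0.03. The calls of 5 genes were lost with single arrays left out: CBR1 (adjusted p up to 0.157, without mismatch replicate 2; also lost without match replicate 2 or 3 or mismatch replicate 3), GSTM3 (up to 0.187, without mismatch replicate 1; also without match replicate 2 or 3 or mismatch replicate 3), IDH1 (up to 0.149, without mismatch replicate 3; also without match replicate 2 or 3, and at -0.01 on its other probe set), UGDH (0.0748 without match replicate 2 and 0.0804 without mismatch replicate 3) and GCLC (0.0628 without match replicate 1). CYP4F11 did not differ beyond its error (-0.01, 95% interval -0.27 to 0.24), nor did GSR (0.01, -0.15 to 0.17) or AKR1C2 (0.11, -0.21 to 0.43). GPX2 was not called (-0.10, -0.22 to 0.01), but with median centring it was called lower with match (-0.23, adjusted p = 0.0257). KEAP1 was at 0.25 (0.07 to 0.44; adjusted p = 0.0574) and was called without match replicate 1 (0.35, adjusted p = 0.00949). Those intervals show the differences that these arrays leave possible. Among the other pathway genes 8 of 48 were higher with match and 10 lower, with CES1 (0.98, SE 0.06), SLC3A2, the partner chain of SLC7A11 (0.76, SE 0.06), and SLC6A6 (0.61, SE 0.06) higher and the pump ABCG2 lower (-0.83, SE 0.08).

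Set against non-treated cells, match with dexamethasone left 14 of 36 members lower, 8 higher and 14 not called. Over all probe sets 14.8% were called lower, 15.1% higher and 29.9% either way, and over 1 probe set per gene 37.7% were called. With spike-in scaling the split was 7 higher and 6 lower, beside 6153 higher of 9138 called over all probe sets. ME1 was at -1.58 (SE 0.06), from 1739, 1754 and 1572, and ABCC3 at -1.73 (SE 0.09), from 1162, 1251 and 1091. ABCC1 read 1226, 1226 and 1285 in non-treated cells and 637, 659 and 618 with match (-0.95, SE 0.06; limma adjusted p = 3.16e-10). All 3 were below every non-treated array. SLC7A11 (-1.54, SE 0.11), HMOX1 (-1.01, SE 0.12) and UGDH (-0.70, SE 0.08) were lower too, and CYP4F11 was higher (1.15, SE 0.12). KEAP1 (0.56), GPX2 (0.51), IDH1 (0.46), SRXN1 (0.31) and NFE2L2 (0.24) were called higher by less than 1.5-fold, and MAFG was not called (0.16). SRXN1 lost its call in 1 alternative and NFE2L2 in 4. GCLM was at 0.01 (95% interval -0.11 to 0.13) and GCLC at -0.15 (-0.27 to -0.02), neither of them called. OSGIN1 was called higher by 0.55 but lost without non-treated replicate 3 (adjusted p = 0.155) or match replicate 2 (0.0817) or 3 (0.133). Of the other pathway genes 20 of 48 were higher and 12 lower, with MAFF (1.96) and CES1 (1.11) higher and GSK3B (-2.03) and ABCC4 (-1.70) lower.

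Of the smaller calls against non-treated cells, AKR1C2 and GSTM3 were lower with match and CBR1 was higher. Each was lost with 3 or 4 of the 15 arrays left out (adjusted p up to 0.191, for CBR1 without match replicate 2). CBR1 was lost without non-treated replicate 1 or 3 or match replicate 2 or 3, GSTM3 without non-treated replicate 3 or match replicate 2 or 3, and AKR1C2 without non-treated replicate 1 or 3 or match replicate 1.

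With mismatch and dexamethasone 20 of 36 members were lower than in non-treated cells, 5 were higher and 11 were not called. Over all probe sets 10.6% were called lower, 10.3% higher and 21.0% either way, and over 1 probe set per gene 27.9% were called. As deposited the split was 8 higher and 4 lower, with median centring 8 and 14, and with spike-in scaling 4 and 7. Over all probe sets 4218 of 5831 called were higher as deposited, 4342 of 7894 with median centring and 1768 of 4080 with spike-in scaling. SLC7A11 was 4.91-fold lower (-2.29, SE 0.11; limma adjusted p = 6.72e-12) and ABCC1 was 2.38-fold lower (-1.25, SE 0.06). HMOX1 went from 2227, 2043 and 2464 to 500.1, 424 and 603, 4.34-fold lower (-2.12, SE 0.12). For these 3 genes the mismatch arrays were the lowest of the 5 groups by mean, and their direction and call held under each scaling. AKR1C1 (-0.97), ABCC3 (-0.66), ME1 (-0.64), AKR1C2 (-0.61) and OSGIN1 (-0.60) were lower, and CYP4F11 (1.16), IDH1 (0.63) and GPX2 (0.62) were higher, by 1.5-fold or more. AKR1C1 and AKR1C2 were again read on 217626_at and 244266_at, so these genes remain uncertain. AKR1C1 lost its call in 1 alternative and AKR1C2 in 3. On the signals as deposited ABCC3 (adjusted p = 0.0680), ME1 (0.0590), AKR1C2 (0.151) and OSGIN1 (0.120) were lost. Of the other pathway genes 14 of 48 were higher and 12 lower, with MAFF (1.53) higher and GSK3B (-1.31), TRIM16 (-0.68) and SLC6A6 (-0.82) lower.

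OSGIN1 was also lost without non-treated replicate 1 (adjusted p = 0.115) or 2 (0.0805) or mismatch replicate 1 (0.0599) or 3 (0.117). Of the regulators KEAP1 was called higher (0.31), and NFE2L2 (-0.35) and MAFG (-0.53) were called lower. KEAP1 lost its call in 5 alternatives, MAFG in 4 and NFE2L2 in 3. Among these, KEAP1 was lost without non-treated replicate 2 (0.0839) or mismatch replicate 1 (0.0620) or 2 (0.0795). MAFG was lost without mismatch replicate 3 (0.0664). EPHX1, called lower, was lost without non-treated replicate 1 (0.0718) or 3 (0.141) or mismatch replicate 2 (0.152). TKT and TALDO1 were the weakest calls, with adjusted p = 0.0488 and 0.0458, and each was lost in 19 of the 27 alternatives, 11 of them with 1 array left out (adjusted p up to 0.182 and 0.244). For TKT these were all arrays but mifepristone replicate 3, match replicates 2 and 3 and mismatch replicate 3, and for TALDO1 all but non-treated replicate 2, mifepristone replicate 1 and match replicates 1 and 3.

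Across the 5 groups the order of the mean signals differed between members. For NFE2L2 it was match (2357 ± 91.4 (SD, n = 3)), non-treated (1989.9 ± 30 (SD, n = 3)), mifepristone (1909 ± 48.6 (SD, n = 3)), mismatch (1564 ± 86.1 (SD, n = 3)) and dexamethasone (1224 ± 31.6 (SD, n = 3)). Non-treated and mifepristone were not called different, match against non-treated was called at 0.24 but lost in 4 alternatives, and mifepristone against mismatch was not tested. For HMOX1 it was non-treated, mifepristone (2030.2 ± 334 (SD, n = 3)), match (1107 ± 118 (SD, n = 3)), dexamethasone and mismatch (509 ± 89.9 (SD, n = 3)). Non-treated and mifepristone were again not called different, and mifepristone against match was not tested. For ME1 it was mifepristone (1826 ± 45.1 (SD, n = 3)), non-treated (1688 ± 101 (SD, n = 3)), dexamethasone (1547 ± 54.3 (SD, n = 3)), mismatch (1075 ± 58.5 (SD, n = 3)) and match, and among mifepristone, non-treated and dexamethasone only mifepristone against dexamethasone was called (0.24). For CYP4F11 the polyamide groups were highest (241 ± 44.7 (SD, n = 3) with mismatch and 236 ± 2.43 (SD, n = 3) with match), and non-treated (97.8 ± 9.99 (SD, n = 3)), mifepristone (91.4 ± 6.24 (SD, n = 3)) and dexamethasone (70.8 ± 4.43 (SD, n = 3)) followed without called differences.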

How the data were processed

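Total RNA of A549 cells was hybridised to 15 Affymetrix HG-U133 Plus 2 arrays, 3 per group. The deposited values are linear intensity values from MAS5, per the submitters' processing notes; its version and scaling target are not stated in them. Arrays give no read depth, so their number limits precision. Here the signals were quantile normalized, 16 was added and log2 taken. Of 54675 probe sets 62 controls were left out, and 39744 with at least 3 of 15 arrays above percentile 40 of their own array were tested. One linear model with a coefficient per group was fitted over all arrays (limma 3.58.1, R 4.3.3; empirical Bayes with a variance trend), giving 8 comparisons with Benjamini-Hochberg adjustment. The fit was tested on simulated data. Symbols came from the platform annotation. The members and gene lists were chosen with earlier results of these data known. Named with each array's value were the 3 members with the smallest adjusted p per comparison and the regulators; named by fold were called members at 1.5-fold or more, and up to 4 other pathway genes. Same-numbered arrays did not deviate together (30 pairs, correlation -0.08 to 0.12), so replicate numbers were not used as pairs.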

Additional observations from a re-analysis of the deposited data

How the results depend on the processing

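Across 27 alternatives the 12 members lowered by dexamethasone stayed lower, 7 of them called in each. Among these 7, SRXN1, HMOX1 and OSGIN1 have 1 probe set each, so the alternative on the next probe set could not change them. SLC7A11 was tried on 1 further probe set, and another, outside the alternatives, was not called, as given above. Some of the settings that left out 1 array dropped arrays of groups outside this comparison. The alternatives covered the members only, and not the other pathway genes. Counts of called members moved as follows, and the cause was not tested. The calls over all probe sets moved too, as given above for most of the scalings. As deposited they were 24 for mifepristone against dexamethasone, 9 for match against mismatch, and against non-treated cells 9 for mifepristone, 14 for match and 12 for mismatch. With spike-in scaling they were 31, 15 and 14 for mifepristone, match and mismatch against dexamethasone, 10 for match against mismatch, and 7, 13 and 11 against non-treated cells. Without a variance trend they were 9 for mifepristone against dexamethasone and 13 for match against mismatch, beside 1060 and 5610 of all probe sets. Leaving out 1 array gave 11 to 13 (dexamethasone against non-treated), 11 to 15, 21 to 24 and 21 to 25 (mifepristone, match and mismatch against dexamethasone), 17 to 22 (match against mismatch), and 0 to 0, 18 to 23 and 21 to 25 against non-treated cells. With the replicate number as a block they were 12, 14, 24, 24, 21, 0, 23 and 23 in the same order.

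Signs turned in these cases, counting only estimates called in the main fit or in the alternative. With spike-in scaling, mifepristone against dexamethasone gave ALDH3A1 0.45, PGD 0.36 and SLC48A1 0.52. On the next probe set, match against dexamethasone gave AKR1C1 0.32, AKR1C2 0.0059, GSTM3 0.38 and TKT 0.23; mismatch against dexamethasone gave GSR -0.10 and NFE2L2 -0.076; match against mismatch gave TKT 0.76, a called difference; and match against non-treated gave AKR1C1 0.026 and TKT 0.043. As deposited, match against mismatch gave AKR1B10 -0.034, and mismatch against non-treated gave AKR1C3 0.013, TALDO1 0.12 and TKT 0.086.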

Other observations

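Other probe sets of some members gave other values than those chosen by the rule. The second probe set of GPX2 (239595_at) was lower with dexamethasone than in non-treated cells (-0.68; limma adjusted p = 0.00368), where the chosen one was not called. The second probe set of GSTM3 (235867_at) gave -0.95 (limma adjusted p = 0.0321) beside -0.01, and ME1 on 204058_at gave -0.34 (limma adjusted p = 0.0154) beside -0.12. For IDH1, match minus dexamethasone was 0.61 on 201193_at and 0.34 on the chosen probe set.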
